A study of Saccharomyces cerevisiae with 15 samples.

Results

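The subject is the pair of budding yeast (Saccharomyces cerevisiae) libraries in which the RNA helicase gene PRP43 carries a DAmP allele, prp43 DAmP and prp43 DAmP htz1. They are 2 of 15 RNA-sequencing libraries of the series and were set against 4 libraries with the normal PRP43 allele, wild type 1 and 3 and htz1 deletion 1 and 2. The first of the pair keeps HTZ1, the gene of the histone variant H2A.Z, and the other lacks it, so each has its own controls: prp43 DAmP those of the wild type, prp43 DAmP htz1 those of the htz1 deletion. Per the labels, all 6 came from haploid cells of the BY4741/2 background, marked his-, leu- and ura-, in logarithmic growth in glucose-rich medium, and rRNA was removed before the libraries were made. Each DAmP genotype had 1 library, and how many clones stand behind it is not given. The values are RPKM, reads set against the length of the gene and the size of the library, as the authors deposited them, and differences are given on the log2(RPKM + 1) scale. Whether libraries of a genotype stem from separate cultures is not stated. By their RNA, wild type 1 and 3 differed in mating type. Between htz1 1 and 2 the marker genes MET17 and LYS2 differed. SDs and p-values therefore cover a spread that includes such strain differences, and how much of it is technical is not known.

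Prp43 is a DEAH-box RNA helicase with a pair of known duties. In splicing it takes apart the spliceosome that still holds the excised intron lariat, with the G-patch protein Spp382 (Ntr1) and with Ntr2 as partners. In ribosome assembly it works on precursors of both ribosomal subunits and helps to release small nucleolar RNAs (snoRNAs) from them, with the G-patch proteins Sqs1 (Pfa1) and Pxr1 (Gno1). PRP43 is essential, and a DAmP allele lowers its mRNA by placing a resistance cassette right after the stop codon, which cuts off the natural end of the transcript. H2A.Z is placed next to promoters by the SWR1 complex.

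HTZ1 followed the labels, at 84.4 RPKM in prp43 DAmP and listed at 0 in prp43 DAmP htz1, against 114 and 105 RPKM in the wild type and 0 in both htz1 libraries. LEU2 and URA3 were at most 0.087 RPKM in the 6 libraries, while HIS3 stood between 71.5 and 134 RPKM. A his- label does not by itself say that HIS3 RNA is absent. The libraries also differed in markers the labels do not name. MET17, a gene of methionine synthesis, was listed at 0 RPKM in prp43 DAmP and at 0.036 RPKM in prp43 DAmP htz1, against 260.2 and 196 RPKM in wild type 1 and 3, 245 RPKM in htz1 1 and 0.082 RPKM in htz1 2. LYS2, a gene of lysine synthesis, stood the other way, at 63.9 and 43.5 RPKM in prp43 DAmP and prp43 DAmP htz1, 44.4 RPKM in htz1 2 and at most 0.122 RPKM in the other 3. Thus htz1 2 carried the same pair of markers as both DAmP libraries, and neither wild-type library did. Between prp43 DAmP and the wild type, the DAmP allele and these markers cannot be told apart. The same holds for every fit below that leaves htz1 2 out, since no control with these markers then remains. Wild type 1 had the summed RPKM of a MATalpha strain (18.4 over 7 MATa-specific genes and 3748 over 5 MATalpha-specific genes), while the MATa-specific sum was 616 in prp43 DAmP, 1855 in prp43 DAmP htz1 and 1119 to 1506 in the other 3. Reading frames of the ribosomal DNA made up 1.14% of all RPKM summed in the prp43 DAmP library and 3.41% in prp43 DAmP htz1, against 0.398 to 1.48% in 3 control libraries and 21.2% in htz1 1. Across genes, prp43 DAmP htz1 was most like htz1 2 (Spearman's rho 0.991), above htz1 1 (0.972) and prp43 DAmP (0.96). The implied library totals were 57373750 reads for prp43 DAmP and 41535125 for prp43 DAmP htz1, against 14984500 and 40402375 for wild type 1 and 3 and 19578875 and 36707500 for htz1 1 and 2.

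PRP43 itself was lower in both DAmP libraries than in any other library of the series. PRP43 (YGL120C, chromosome VII, 281634 to 283937, minus strand) had 42.7 RPKM in the prp43 DAmP library and 55.4 RPKM in prp43 DAmP htz1, against 157 and 119.9 RPKM in wild type 1 and 3, 156 and 84.8 RPKM in htz1 1 and 2, and 96.3 to 147 RPKM in the remaining 9 libraries. The groups did not overlap, and htz1 2 was the control closest to the DAmP libraries. In bulk RNA such as this, a lower level per cell and fewer cells with the transcript cannot be told apart. The prp43 DAmP level was 30.8% of the wild-type mean of 139 ± 26.4 RPKM (SD, n = 2), and the prp43 DAmP htz1 level was 45.9% of the htz1 mean of 121 ± 50.6 RPKM (SD, n = 2) and 65.3% of htz1 2 alone. Averaged over both HTZ1 states the log2 difference was -1.35 (SE 0.287), and it did not pass limma's test over 6404 genes (adjusted p = 0.999). Without htz1 2 it did (log2 -1.59, adjusted p = 0.00428). An exact permutation test of PRP43 alone within HTZ1 state gave a one-sided p of 0.111, the smallest its 9 arrangements allow.

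The end of the PRP43 coding sequence, next to which a DAmP cassette is placed, is shown with the stop codon in capitals (RefSeq R64, the sacCer3 build of the files, chrVII:281634-281693, minus strand).
PRP43: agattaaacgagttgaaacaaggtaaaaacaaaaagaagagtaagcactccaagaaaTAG
The gene past this end, GPG1 (YGL121C, chromosome VII, 280777 to 281157), stood at 16.8 and 12.7 RPKM in prp43 DAmP and prp43 DAmP htz1, against 13.8 and 10.8 RPKM in the wild type and 15.1 and 17.1 RPKM in htz1 1 and 2. COQ8, on the other side of PRP43, stood at 22.7 and 20.6 RPKM in the DAmP libraries, against 20.01 to 27.6 RPKM in the 4 controls. In none of the 6 measured genes within 5 kb of PRP43 (ARO5, COQ8, GPG1, NAB2, RPS2 and MON1) did both DAmP libraries lie beyond all 4 controls.

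No gene passed the test for a DAmP difference averaged over both HTZ1 states: 0 of 6404 genes (0%) in limma, where 86 genes were higher (1.34%) and 71 lower (1.11%) at an unadjusted p under 0.05, and 0 in limma voom on the recovered reads, where 143 had an unadjusted p under 0.05. In simulated sets with changes of known size, the same fit recovered 6.8% of genes changed 1.5-fold. It recovered 49.2% of those changed 2-fold and 97.2% of those changed 4-fold. The simulated noise was independent between genes and libraries. Likeness of whole libraries, as between htz1 2 and prp43 DAmP htz1, was absent from it, so these shares may not hold here. In the data HXT7, at log2 -3.47, did not pass. The count depended on htz1 2: without it 103 genes passed, 16 higher and 87 lower in the DAmP libraries, against 20 without prp43 DAmP htz1 and 1 (HXT7) without htz1 1. Leaving htz1 2 out removes the only control with the markers of the DAmP libraries, so the 103 cannot be assigned to the DAmP allele. MET17 and LYS2 were themselves among them. In prp43 DAmP, 162 genes (2.53%) lay at least 2-fold above the wild-type mean and 124 (1.94%) below it. In prp43 DAmP htz1 the numbers against the htz1 mean were 16 (0.25%) above and 22 (0.344%) below. Both DAmP libraries lay above all 4 controls for 186 genes (2.9%) and below all 4 for 205 genes (3.2%).

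A shift of at least 2-fold in both pairs, with both DAmP libraries beyond all 4 controls, was seen for 7 genes: COS8 higher (0.0156% of genes tested), and MET17, HXT7, HXT6, IZH4, PRP43 and snR69 lower (0.0937%). MET17 is the strain marker described above. The smaller of each gene's 2 shifts placed COS8 (log2 1.08), PRP43 (-1.04) and snR69 (-1.03) just inside this limit, and ZRT1 (-0.90), OLE1 (-0.89) and YFL065C (0.85) just outside. At a limit of 1.5-fold the set held 35 genes, 6 higher (0.0937%) and 29 lower (0.453%). The lower ones included the marker MET17 and the MATalpha-specific gene MF(ALPHA)1. MF(ALPHA)1 had 2262 RPKM in wild type 1, the MATalpha library, and at most 3.59 RPKM in the others compared, so its shift against the wild type rests on wild type 1. Its smaller shift, log2 -0.82 against the htz1 mean, rests on htz1 1 at 3.59 RPKM. There prp43 DAmP htz1 had 0.483 RPKM and htz1 2 had 0.492 RPKM. In 29 of these 35, prp43 DAmP htz1 and htz1 2 lay within 1.5-fold of each other, and the 6 that differed more were HXT7, HXT6, PRP43 and FIT1 (lower in prp43 DAmP htz1) and YFL067W and YFL065C (higher). Over all genes tested, 97% lay within 1.5-fold in that pair of libraries, more than the 82.9% of these 35. The library htz1 2 has the normal PRP43 allele and the markers of the DAmP libraries, whose part in these shifts was not tested. The count of 7 became 2 (HXT7 and HXT6) without htz1 1 and 58 without htz1 2, and with each library scaled to the same median log ratio it was 5, without COS8 and snR69.

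**Figure D1:**
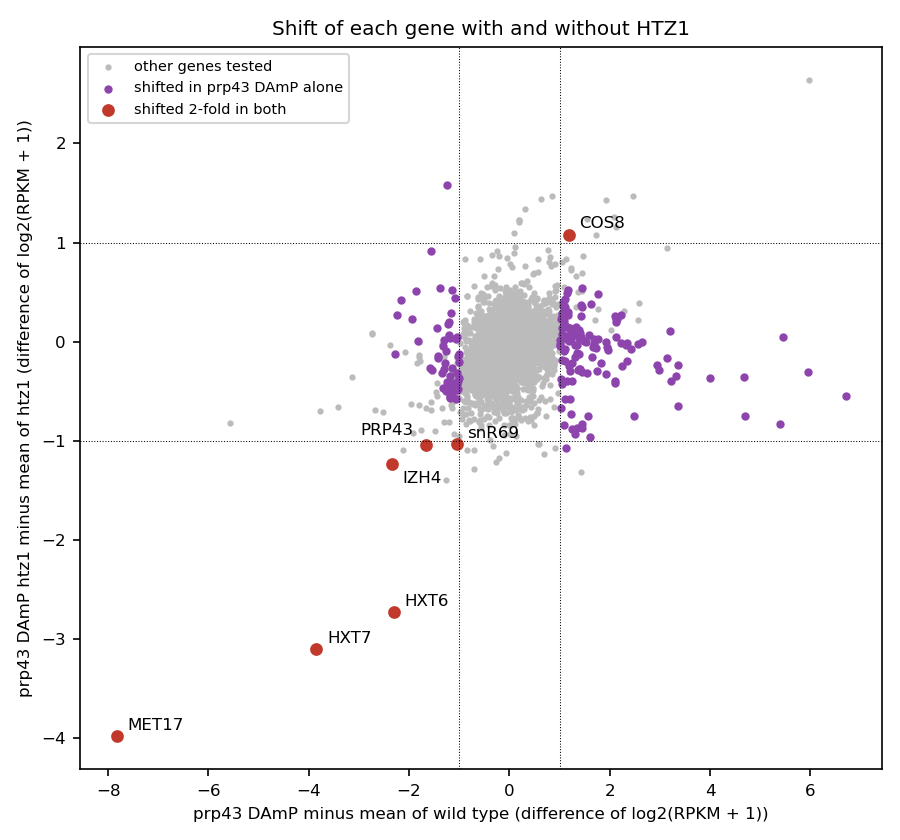
Each point is 1 of 6404 genes. The horizontal axis is prp43 DAmP minus the mean of the 2 wild-type libraries and the vertical axis prp43 DAmP htz1 minus the mean of the 2 htz1 libraries, both as differences of log2(RPKM + 1), with dotted lines at 2-fold. The 7 named red points shifted at least 2-fold in both, and the purple points, strung out along the horizontal axis near a vertical value of 0, shifted in prp43 DAmP alone.

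The hexose transporter genes HXT7 and HXT6 stood furthest below their controls in both DAmP libraries apart from the marker MET17. Both encode high-affinity glucose transporters, which yeast uses when glucose is scarce. HXT7 (YDR342C, chromosome IV, 1154216 to 1155928) had 17.3 RPKM in the prp43 DAmP library and 17.5 RPKM in prp43 DAmP htz1, against 494 and 139 RPKM in wild type 1 and 3 and 43.7 and 557 RPKM in htz1 1 and 2. HXT6 (YDR343C, chromosome IV, 1159608 to 1161320) stood at 58.3 and 34.1 RPKM in prp43 DAmP and prp43 DAmP htz1, against 527 and 159.8 RPKM in wild type 1 and 3 and 96.8 and 548 RPKM in htz1 1 and 2. For both genes the DAmP libraries were the lowest of all 15, the remaining 9 lying between 71.5 and 626 RPKM for HXT7 and between 98.9 and 596 RPKM for HXT6. The controls of each genotype were themselves far apart, so the averaged log2 differences of -3.47 (SE 0.959) for HXT7 and -2.51 (SE 0.715) for HXT6 did not pass the test (limma adjusted p = 0.999 for both). HXT7 passed without htz1 1 (log2 -4.31, adjusted p = 0.0223) and without htz1 2 (-2.74, adjusted p = 0.0327), and HXT6 without htz1 2 (-1.95, adjusted p = 0.0349).

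Against htz1 2, which shares the markers, prp43 DAmP htz1 was lower by log2 -4.92 for HXT7 and -3.97 for HXT6, a comparison of 1 library with 1 that has no replicate check. Of all genes tested, 40 (0.625%) lay at least 2-fold higher and 6 (0.0937%) at least 2-fold lower in prp43 DAmP htz1 than in htz1 2, and HXT7 and HXT6 showed the largest differences among the 6. The next were genes of cell wall mannoproteins that help take up iron, named after their values were seen. FIT3 had 126 RPKM in prp43 DAmP htz1 and 376 RPKM in htz1 2, and FIT2 had 62.2 RPKM in prp43 DAmP htz1 and 182 RPKM in htz1 2.

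HXT6 and HXT7 are neighbours with nearly the same sequence, so reads can hardly be assigned to one or the other. Their coding sequences, both 1713 bases long, were 99.8% identical and differed at 3 bases, T1632C, G1666A and T1677C, written as the HXT6 base, the position counted from the A of the start codon, and the HXT7 base. The 84 bases before the start codon were the same. The stretch that holds all 3 differences, shown in capitals, is taken from RefSeq R64 (minus strand, chrIV:1159640-1159699 for HXT6 and chrIV:1154248-1154307 for HXT7).
HXT6: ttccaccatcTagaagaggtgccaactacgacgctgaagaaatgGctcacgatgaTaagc
HXT7: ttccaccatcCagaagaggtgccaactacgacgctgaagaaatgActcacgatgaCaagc
How far the levels of HXT6 and HXT7 differ from each other is therefore uncertain.

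Of 21 measured genes of the list, HXT7, HXT6 and HXT1 lay lower in both DAmP libraries than in all 4 controls (14.3%, against 3.2% of all genes) and none lay higher. HXT1, which encodes a low-affinity glucose transporter, stood at 103 and 114 RPKM in prp43 DAmP and prp43 DAmP htz1, against 223 and 182 RPKM in the wild type and 294 and 119 RPKM in htz1 1 and 2. HXT1 thus lay near its htz1 2 level, unlike HXT6 and HXT7. HXT3 stood at 1350.4 and 577 RPKM in the DAmP libraries, against 1411 and 832 RPKM in the wild type and 1528 and 637 RPKM in htz1 1 and 2, so the groups overlapped. The median log2 difference of the list was -0.32, against -0.072 over all genes tested, but single libraries moved it widely. It was -0.069 without htz1 1, -0.12 without wild type 1, -0.52 without prp43 DAmP, -0.60 without wild type 3, -0.65 without htz1 2, and 0.15 with wild type 1 and htz1 1 both left out, so no direction holds for the list.

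**Figure D2:**
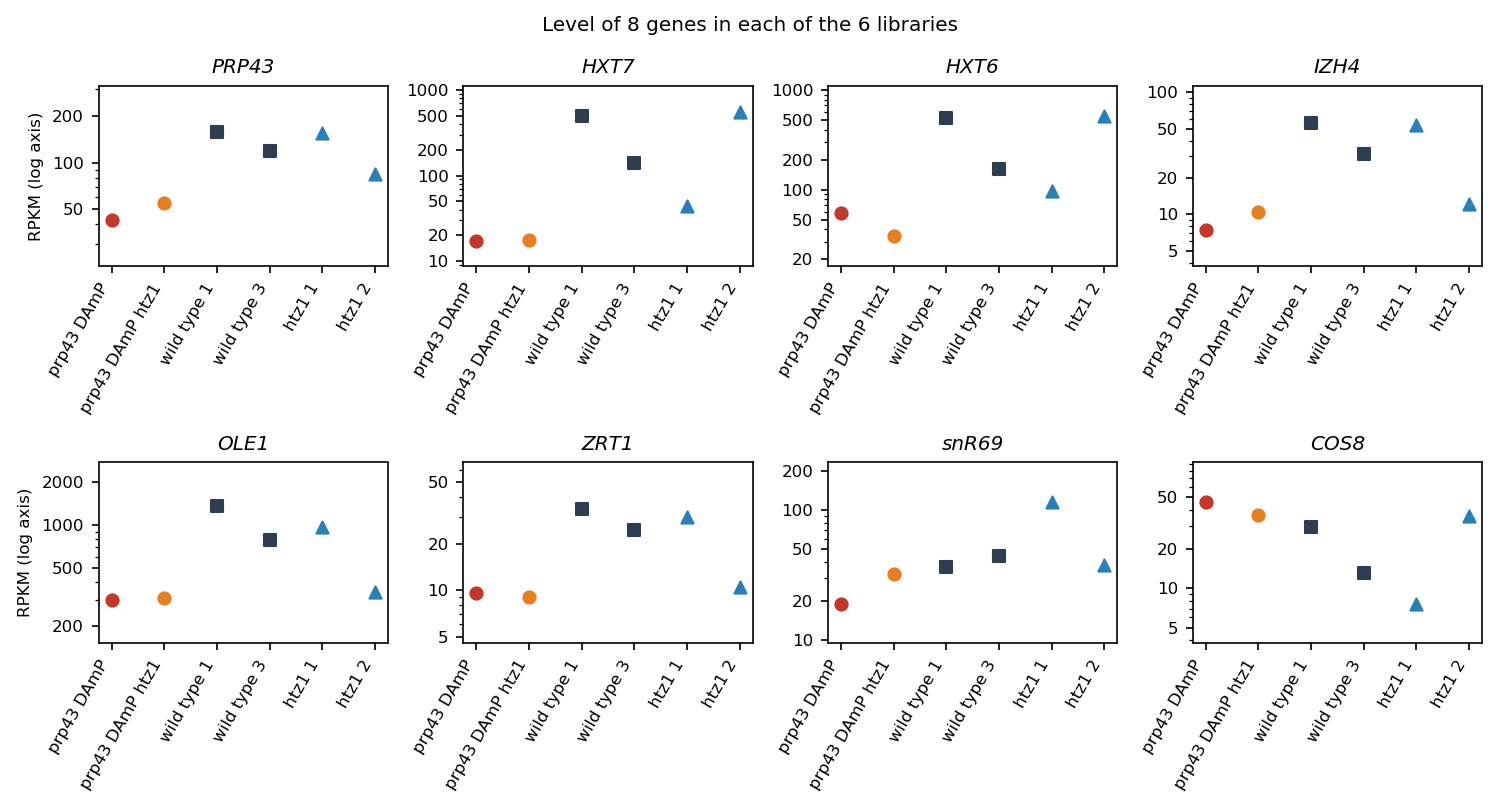
RPKM (log axes) of 8 genes in each of the 6 libraries, 1 point per library: both DAmP libraries as circles, wild type as squares and htz1 as triangles. PRP43, HXT7 and HXT6 lie lowest in both DAmP libraries. For HXT7 and HXT6 htz1 2 lies well above them, and for PRP43 it lies above them but is the closest control. For IZH4, OLE1, ZRT1 and COS8 htz1 2 lies close to the DAmP libraries.

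IZH4, a membrane protein gene tied to zinc balance and lipid metabolism, was the next in size. IZH4 (YOL101C, chromosome XV, 126982 to 127920) had 7.48 RPKM in the prp43 DAmP library and 10.5 RPKM in prp43 DAmP htz1, against 56.4 and 31.2 RPKM in wild type 1 and 3 and 54.1 and 12.3 RPKM in htz1 1 and 2. The groups did not overlap, but htz1 2 lay next to the DAmP libraries and far below the other controls. The averaged log2 difference was -1.79 (SE 0.577, limma adjusted p = 0.999), and -2.31 (adjusted p = 0.0041) without htz1 2.

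Among the genes of copper and zinc supply, 4 of 18 lay below all controls in both DAmP libraries (22.2%, against 3.2% of all genes) and 1 above, CUP2 (5.56%, against 2.9%). Besides IZH4, these were its relative IZH1 and the zinc uptake transporter genes ZRT1 (high affinity) and ZRT2 (low affinity), named here after their values were seen. ZRT1 stood at 9.65 and 9.09 RPKM in prp43 DAmP and prp43 DAmP htz1, against 33.6 and 24.4 RPKM in the wild type and 29.9 and 10.5 RPKM in htz1 1 and 2. IZH1 stood at 30.4 and 49.4 RPKM in the DAmP libraries, against 141 and 83.0 RPKM in the wild type and 111 and 54.0 RPKM in htz1 1 and 2. For ZRT1, IZH1 and ZRT2, as for IZH4, htz1 2 lay near the DAmP level. The list's median log2 difference was -0.13, but -0.41 without prp43 DAmP htz1, -0.34 without htz1 2, -0.24 without prp43 DAmP and -0.054 with each library scaled to the same median log ratio.

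ZRT1 is a known target of Zap1, the activator that responds to low zinc. A window of 300 bases, its near end 100 bases before the start codon, was searched in each protein-coding gene. The Zap1 motif (the consensus zinc-responsive element, a palindrome that reads the same on both strands) was found in the windows of 0.0848% of 5894 genes, ZRT1 among them and IZH1 and IZH4 not. The ZRT1 window is shown with that match in capitals (R64, chrVII:20578-20877, plus strand).
ZRT1: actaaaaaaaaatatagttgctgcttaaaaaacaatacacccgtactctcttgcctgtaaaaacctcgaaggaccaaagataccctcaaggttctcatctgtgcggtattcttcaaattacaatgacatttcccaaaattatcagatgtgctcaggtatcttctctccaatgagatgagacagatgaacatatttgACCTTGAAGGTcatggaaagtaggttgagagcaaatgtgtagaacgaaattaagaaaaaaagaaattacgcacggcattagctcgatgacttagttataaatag
A match describes the letters in this window, and it says nothing of binding in these cells.

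From the 1.5-fold set 3 further genes, OLE1, MGA2 and FAA4, are described here, picked after their values were seen and not as members of a list. OLE1, the fatty acid desaturase gene of this yeast, stood at 304 and 310.4 RPKM in prp43 DAmP and prp43 DAmP htz1, against 1357 and 789.7 RPKM in the wild type and 966 and 342 RPKM in htz1 1 and 2. MGA2, which encodes an activator of OLE1, stood at 35.7 and 36.2 RPKM in the DAmP libraries, against 78.8 and 49.9 RPKM in the wild type and 80.9 and 38.5 RPKM in htz1 1 and 2. FAA4, a fatty acyl-CoA synthetase gene, stood at 113 and 160.2 RPKM in the DAmP libraries, against 437 and 296 RPKM in the wild type and 380.5 and 171 RPKM in htz1 1 and 2. In all 3 the DAmP libraries were the lowest of the 6, as the rule of that set requires, and htz1 2 was closer to them than to the other controls. None passed the test.

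The snoRNA snR69 lay lower as well. It is a box C/D snoRNA, the class that guides 2'-O-methylation of ribosomal RNA. snR69 (chromosome XI, 364776 to 364876) had 19.0 RPKM in the prp43 DAmP library and 31.9 RPKM in prp43 DAmP htz1, against 36.3 and 44.6 RPKM in wild type 1 and 3 and 116 and 37.8 RPKM in htz1 1 and 2. Both DAmP libraries lay below all 4 controls, by a small margin for prp43 DAmP htz1, and the htz1 mean of 77.0 ± 55.5 RPKM (SD, n = 2) rests on htz1 1. The averaged log2 difference was -1.04 (SE 0.405, limma adjusted p = 0.999). It was -1.38 without htz1 2. The gene left the 2-fold set with each library scaled to the same median log ratio, with a pseudocount of 5, without wild type 3 and without htz1 1. In the remaining 9 libraries of the series snR69 stood between 13.7 and 301 RPKM, with a median of 23.9 RPKM, so low levels were not particular to the DAmP libraries. The gene is shown with the letters of box C and box D in capitals (R64, chrXI:364776-364876, plus strand).
snR69: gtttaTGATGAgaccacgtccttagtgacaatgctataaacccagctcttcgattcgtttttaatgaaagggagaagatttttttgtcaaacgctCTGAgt
Across 76 snoRNAs, 4 lay below all controls in both DAmP libraries (snR69, snR61, snR189 and snR54) and none above, so 5.26% were below, against 3.2% of all genes. The median log2 difference was 0.074, but -0.10 without wild type 1, so no direction holds for the class.

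COS8 was the single gene at least 2-fold higher in both, and it left that set with each library scaled to the same median log ratio, with a pseudocount of 5, without wild type 3 and without htz1 1. It belongs to a family of similar membrane protein genes near chromosome ends, among which reads may be shared. COS8 (YHL048W, chromosome VIII, 6401 to 7546) stood at 46.4 and 36.7 RPKM in prp43 DAmP and prp43 DAmP htz1, against 29.5 and 13.2 RPKM in the wild type and 7.62 and 36.0 RPKM in htz1 1 and 2. The margin over htz1 2 was under 1 RPKM. The averaged log2 difference was 1.14 (SE 0.572, limma adjusted p = 0.999), and without htz1 2 it was 1.59 (adjusted p = 0.0432). Of 11 COS genes, 3 lay above all controls in both DAmP libraries (27.3%, against 2.9% of all genes). The others were COS1, at 35.9 RPKM in prp43 DAmP htz1 and 33.8 RPKM in htz1 2, and COS6, at 88.4 and 88.2 RPKM. In all 3 the margin over htz1 2 was thus small, and shared reads may tie the 3 together.

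Factors that assemble ribosomes, the field in which Prp43 works, were lower on the whole against the wild type and htz1 1 but not against htz1 2. The list of 68 small-subunit factors had a median log2 difference of -0.58 and that of 82 large-subunit factors -0.605, where the median of all genes was -0.072. In prp43 DAmP minus the wild type these medians were -0.84 and -0.885 (all genes -0.12). In prp43 DAmP htz1 minus the htz1 mean they were -0.33 and -0.32 (all genes -0.042). Against htz1 2 alone they were 0.16 and 0.21 (all genes 0.086), with 62 of 68 and 76 of 82 factors higher in prp43 DAmP htz1, where 4605 of all 6404 genes were higher. The sign without HTZ1 thus depended on which htz1 library was used. With wild type 1 and htz1 1 both left out, the averaged medians were -0.225 and -0.21. No member passed the test.

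Few single assembly factors lay beyond every control. In each list 5 genes lay below all 4 controls in both DAmP libraries and none above, 7.35% of the small-subunit and 6.1% of the large-subunit factors, against 3.2% of all genes. PRP43 itself is counted among the large-subunit members. NAN1 (UTP17), a protein of the early small-subunit precursor, stood at 68.4 and 82.5 RPKM in prp43 DAmP and prp43 DAmP htz1, against 147 and 110.1 RPKM in the wild type and 164 and 85.3 RPKM in htz1 1 and 2. NOC4, another small-subunit factor, stood at 33.1 and 38.9 RPKM in the DAmP libraries, against 64.4 and 54.3 RPKM in the wild type and 64.01 and 43.7 RPKM in htz1 1 and 2. NOG1, a GTPase of the large-subunit precursor, stood at 186 and 207.4 RPKM in the DAmP libraries, against 403 and 298 RPKM in the wild type and 391 and 207.6 RPKM in htz1 1 and 2. These members of the lists were named after their values were seen, and in each the margin below htz1 2 was small.

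DBP2, a DEAD-box RNA helicase gene that carries an intron, had the largest shift of these 10 after PRP43. DBP2 stood at 86.2 and 105 RPKM in prp43 DAmP and prp43 DAmP htz1, against 352 and 187 RPKM in the wild type and 268 and 108 RPKM in htz1 1 and 2. The averaged log2 difference was -1.13 (SE 0.425), not past the test. NAF1, an assembly factor of box H/ACA snoRNPs, stood at 26.5 and 27.7 RPKM in the DAmP libraries, against 61.7 and 42.0 RPKM in the wild type and 69.6 and 28.6 RPKM in htz1 1 and 2. It was 1 of 7 among 33 snoRNP core and RNA polymerase I genes below all controls in both DAmP libraries (21.2%, against 3.2% of all genes). NSR1, the nucleolin of yeast, was another, at 274 and 299.9 RPKM in the DAmP libraries, against 758 and 558 RPKM in the wild type and 579 and 303 RPKM in htz1 1 and 2. Of 21 nuclear exosome and TRAMP genes, 2 were below (TRF5 and RRP4; 9.52%, against the same 3.2%) and none above.

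Promoters of ribosome assembly genes are known for a pair of motifs, PAC (searched as GATGAG) and RRPE (searched as AAAATTT), on either strand. In the windows defined above, PAC was found in 54.4% of small-subunit and 58.5% of large-subunit factors, against 17.9% of all genes. RRPE was found in 80.9% and 84.1% of them, against 24.6% of all genes. Of the 10 factors counted below all controls (PRP43 and DBP2 included), 5 of 5 in each list held RRPE, and 2 of 5 small-subunit and 3 of 5 large-subunit ones held PAC. The DBP2 window is shown with RRPE matches and the PAC match, here as its reverse complement, in capitals (R64, chrXIV:413239-413538, plus strand). The second run of capitals in RRPE letters holds overlapping matches on both strands.
DBP2: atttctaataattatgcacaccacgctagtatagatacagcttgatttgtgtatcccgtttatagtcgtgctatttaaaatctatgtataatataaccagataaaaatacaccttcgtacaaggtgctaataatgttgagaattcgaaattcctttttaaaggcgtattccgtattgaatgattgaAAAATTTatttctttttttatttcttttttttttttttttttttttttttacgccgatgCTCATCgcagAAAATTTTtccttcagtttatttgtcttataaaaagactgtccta

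**Figure D3:**
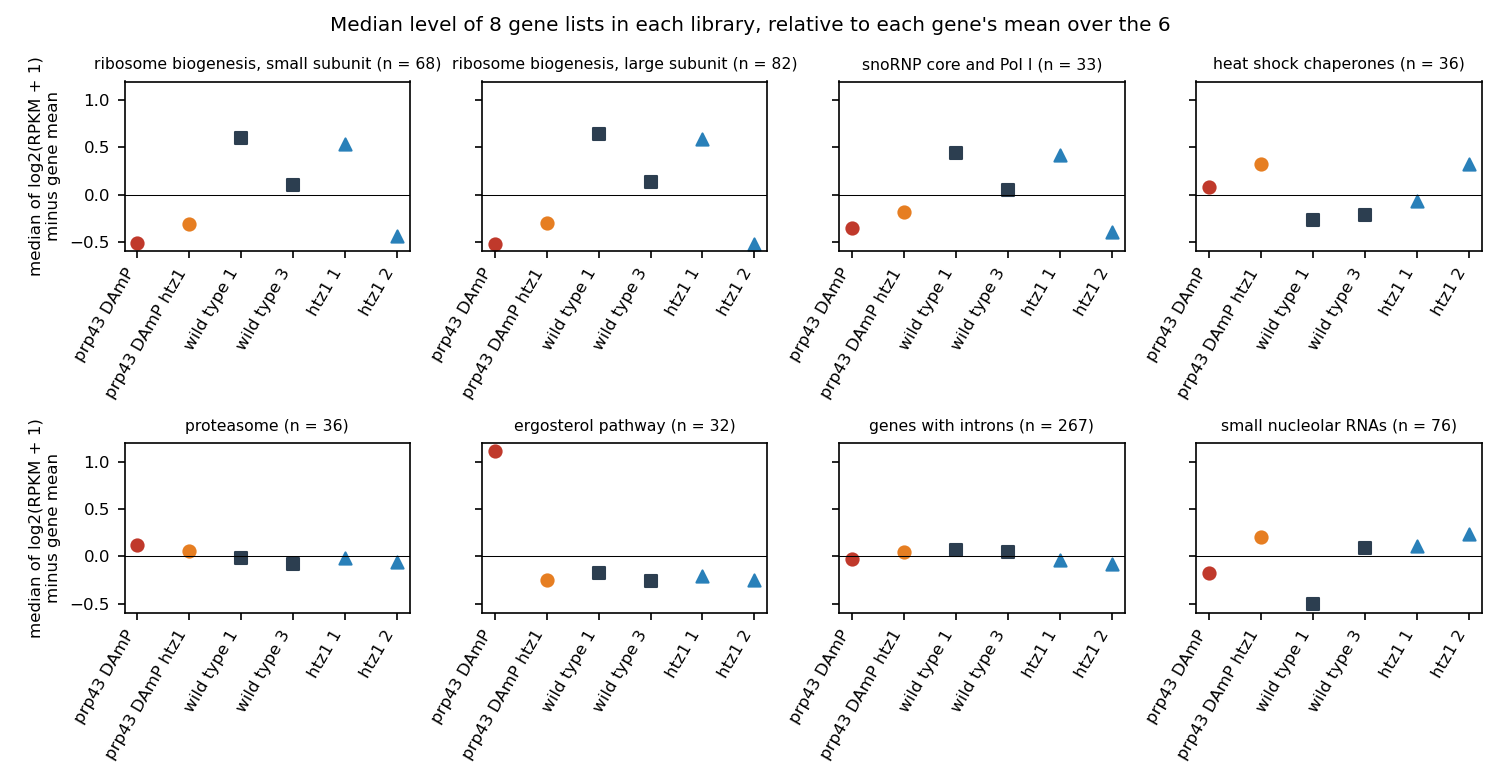
Median over the members of 8 gene lists in each of the 6 libraries, 1 point per library, as log2(RPKM + 1) minus each gene's mean over the 6. The ribosome biogenesis lists lie low in both DAmP libraries and in htz1 2 and high in wild type 1 and htz1 1, the heat shock list lies highest in prp43 DAmP htz1 and htz1 2, and the ergosterol list stands apart in prp43 DAmP alone.

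Of 36 chaperone and related genes of the heat shock list, 10 lay above all 4 controls in both DAmP libraries and none below, 27.8% against 2.9% of all genes. The other 26 did not lie beyond all controls in both. The list's median log2 difference was 0.20, where all genes had -0.072. It was 0.20 in prp43 DAmP minus the wild type and 0.21 in prp43 DAmP htz1 minus the htz1 mean. Against htz1 2 it was 0.035, under the 0.086 of all genes. No member passed the test, and the members below were named after their values were seen.

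SIS1, an essential Hsp40 co-chaperone, stood at 174 and 194 RPKM in prp43 DAmP and prp43 DAmP htz1, against 72.9 and 115 RPKM in the wild type and 75.9 and 166 RPKM in htz1 1 and 2. HSP104, the disaggregase, stood at 323 and 324 RPKM in the DAmP libraries, against 163 and 169 RPKM in the wild type and 168 and 282 RPKM in htz1 1 and 2. HSP42, a small heat shock protein gene, stood at 117 and 112 RPKM in the DAmP libraries, against 60.5 and 60.7 RPKM in the wild type and 67.7 and 89.6 RPKM in htz1 1 and 2. Its averaged log2 difference of 0.73 (SE 0.188) had the smallest unadjusted limma p of these 10 genes, 0.00601. BTN2, which gathers misfolded proteins, stood at 34.9 and 36.8 RPKM in the DAmP libraries, against 11.8 and 22.3 RPKM in the wild type and 13.8 and 30.4 RPKM in htz1 1 and 2. MBF1, a transcriptional coactivator gene on the list, stood at 700.2 and 629 RPKM in the DAmP libraries, against 212 and 366 RPKM in the wild type and 289 and 543 RPKM in htz1 1 and 2. That both DAmP libraries were highest is the rule by which the 10 genes were counted. In all 5 described here htz1 2 was the highest of the controls. FES1, another of the 10, differed, with 70.9 RPKM in htz1 1 and 67.7 RPKM in htz1 2.

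Genes of this kind are driven by the heat shock factor Hsf1, which binds repeats of GAA in alternating orientation. A short form of that element, GAANNTTC, which reads the same on both strands, was found in the windows of 41.7% of the 36 genes and of 8 of the 10 that lay above all controls, against 12.3% of all genes. The SIS1 and BTN2 windows are shown with the matches in capitals (R64, chrXIV:619666-619965, minus strand, and chrVII:772054-772353, plus strand).
SIS1: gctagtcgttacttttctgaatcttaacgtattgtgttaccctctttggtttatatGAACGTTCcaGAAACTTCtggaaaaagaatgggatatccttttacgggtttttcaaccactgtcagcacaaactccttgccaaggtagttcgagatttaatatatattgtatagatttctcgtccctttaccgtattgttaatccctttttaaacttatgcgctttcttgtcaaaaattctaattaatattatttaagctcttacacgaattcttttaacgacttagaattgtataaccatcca
BTN2: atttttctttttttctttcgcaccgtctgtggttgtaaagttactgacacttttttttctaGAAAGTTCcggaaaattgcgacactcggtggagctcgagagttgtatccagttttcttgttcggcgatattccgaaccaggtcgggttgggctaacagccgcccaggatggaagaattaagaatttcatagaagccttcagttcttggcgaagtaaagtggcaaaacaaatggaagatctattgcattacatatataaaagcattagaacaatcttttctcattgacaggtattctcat
MBF1 had no match in its window.

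Of 36 proteasome subunit genes, 14 lay above all 4 controls in both DAmP libraries and none below (38.9%, against 2.9% of all genes). The other 22 did not lie beyond all controls in both, and no member passed the test. The shifts were small, with a median log2 difference of 0.14, and 0.17, 0.078 and 0.10 in prp43 DAmP minus the wild type, in prp43 DAmP htz1 minus the htz1 mean and in prp43 DAmP htz1 minus htz1 2. Against htz1 2, 35 of 36 were higher in prp43 DAmP htz1, as were 4605 of all 6404 genes, whose median was 0.086 in that contrast. RPT6, an ATPase of the regulatory particle, stood at 164 and 158 RPKM in prp43 DAmP and prp43 DAmP htz1, against 145 and 144 RPKM in the wild type and 134 and 136 RPKM in htz1 1 and 2. PUP3, a core particle subunit gene, stood at 174 and 178 RPKM in the DAmP libraries, against 131 and 149 RPKM in the wild type and 142 and 165 RPKM in htz1 1 and 2. Both were named after their values were seen. The site of the proteasome activator Rpn4, searched as GGTGGCAAA on either strand, was found in the windows of 58.3% of the 36 genes and of 8 of these 14, against 1.17% of all genes.

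When wild type 1 (MATalpha) and htz1 1 (rich in ribosomal DNA frames) were both left out, a choice made after seeing the data, each DAmP library faced 1 control. All genes then lay above both controls in 21.7% and below in 4.82% of 6352 tested, the heat shock genes above in 13 of 36 (36.1%) and the proteasome genes in 32 of 36 (88.9%). Of the ribosome assembly factors, 5 of 68 and 6 of 82 lay below both controls and 0 and 1 above. The number of genes shifted at least 2-fold in both became 16, of which HXT7 and HXT6 were shared with the 7 above.

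**Figure D4:**
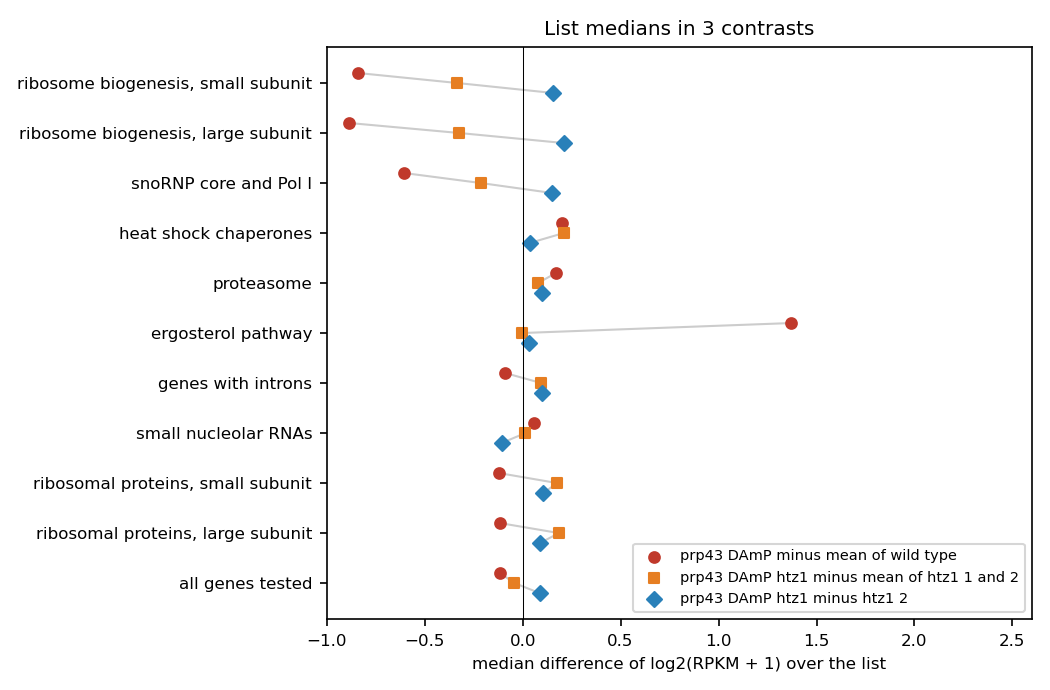
Median difference of log2(RPKM + 1) for 10 gene lists and all genes tested (rows) in 3 contrasts: prp43 DAmP minus the wild-type mean (circles), prp43 DAmP htz1 minus the htz1 mean (squares) and prp43 DAmP htz1 minus htz1 2 alone (diamonds). The ribosome biogenesis lists lie left of 0 in the first 2 contrasts and right of 0 against htz1 2, and the heat shock and proteasome lists lie right of 0 in all 3.

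No partner of Prp43 and no other splicing helicase gene stood below all controls in both DAmP libraries. Of the cofactor list, none of SPP382, NTR2, SQS1, PXR1 and CMG1 lay beyond all controls in both DAmP libraries. PXR1 differed most, at 13.8 and 17.1 RPKM in prp43 DAmP and prp43 DAmP htz1, against 53.4 and 20.4 RPKM in the wild type and 63.1 and 9.92 RPKM in htz1 1 and 2, so htz1 2 lay below both. SPP382 stood at 6.46 and 7.46 RPKM in the DAmP libraries, against 9.54 and 6.77 RPKM in the wild type and 8.62 and 6.20 RPKM in htz1 1 and 2. The remaining 3 had averaged log2 differences between -0.15 and 0.077. The other splicing helicase genes, PRP2, PRP5, PRP16, PRP22, PRP28, BRR2 and SUB2, had averaged log2 differences between -0.36 and -0.08, none beyond all controls. All 7 were higher in prp43 DAmP htz1 than in htz1 2, as were 4605 of all 6404 genes tested.

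Genes with introns, whose transcripts the spliceosome handles, showed no common direction. Of 267 measured genes with introns, 8 lay above all controls in both DAmP libraries and 7 below (3% and 2.62%, near the 2.9% and 3.2% of all genes), with a median log2 difference of 0.008. RPKM was scaled by the whole gene length, so spliced and unspliced RNA cannot be told apart. The 57 small-subunit and 81 large-subunit ribosomal protein genes both had a median of 0.026, with -0.12 in prp43 DAmP minus the wild type and 0.18 and 0.185 in prp43 DAmP htz1 minus the htz1 mean. Of 76 spliceosome protein genes 1 lay above and 1 below, and of 8 genes of lariat release and turnover none did either.

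Genes that shifted in prp43 DAmP but not the same way in prp43 DAmP htz1 were far more numerous than those shifted in both. There were 129 high (2.01%) and 56 low (0.874%) in prp43 DAmP alone, by a criterion that the 2 libraries differ. A direct test of that difference, the interaction of the DAmP allele with the htz1 deletion, passed for 10 genes (0.156%; limma, adjusted p under 0.05), all of them high in prp43 DAmP alone. At an unadjusted p under 0.05 it passed for 116 genes (1.81%). The 10 became 1 with a pseudocount of 0.1, without a filter on low values or at a mean of at least 10 RPKM (PBI1 each time), and 1 (TIR1) in a fit of the 6 libraries alone. They became 5 without wild type 1 or without htz1 1, and 29 without wild type 3. PBI1 had 373 RPKM in the prp43 DAmP library and 4.17 RPKM in prp43 DAmP htz1, against 7.0 and 3.58 RPKM in the wild type and 5.55 and 5.26 RPKM in htz1 1 and 2 (interaction log2 -6.26, SE 0.507, adjusted p = 0.00368). DAN1, a cell wall mannoprotein gene known for its induction without oxygen, stood at 314 and 7.17 RPKM in prp43 DAmP and prp43 DAmP htz1, against 4.24 and 0.745 RPKM in the wild type and 8.83 and 13.5 RPKM in htz1 1 and 2. The wall mannoprotein gene TIR1 stood at 4410 and 209 RPKM in the DAmP libraries, against 159.9 and 184 RPKM in the wild type and 224 and 319 RPKM in htz1 1 and 2. In the remaining 9 libraries PBI1 reached 72.1 RPKM, DAN1 99.9 RPKM and TIR1 244 RPKM, each below its prp43 DAmP level. The other 7 genes that passed were YPR145C-A, ERG3, PAU2, DAN4, SET4, YMR316C-B and YSR3. In these contrasts each DAmP genotype is a single library, assumed to vary like the replicated genotypes. Neither wild-type library had the MET17 and LYS2 markers of prp43 DAmP, while htz1 2 had those of prp43 DAmP htz1. The interaction therefore cannot be told apart from these markers or from a trait of the single prp43 DAmP library.

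Sterol synthesis showed the same contrast between the DAmP libraries. Of 32 genes of the ergosterol pathway, 20 were high in prp43 DAmP alone, against 2.01% of all genes. The median of the list was 1.37 in prp43 DAmP minus the wild type (all genes -0.12). In prp43 DAmP htz1 minus the htz1 mean it was -0.005 (all genes -0.042). ERG6 and ERG24 lay above all controls in both DAmP libraries (6.25%, against 2.9% of all genes), by a small margin in prp43 DAmP htz1. ERG3, a sterol desaturase gene, stood at 1498 and 310.2 RPKM in prp43 DAmP and prp43 DAmP htz1, against 238 and 266 RPKM in the wild type and 314 and 315 RPKM in htz1 1 and 2. In the other direction TIP1, a wall mannoprotein gene, stood at 74.3 and 494 RPKM in the DAmP libraries, against 396 and 341 RPKM in the wild type and 525 and 551 RPKM in htz1 1 and 2. AGA1, the anchor of the mating agglutinin, stood at 11.0 and 90.8 RPKM in the DAmP libraries, against 104 and 29.3 RPKM in the wild type and 126 and 44.6 RPKM in htz1 1 and 2.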

How the data were processed

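RNA levels were measured in 15 libraries, of which 6 were compared here. The table deposited by the authors holds RPKM values for 6662 entries, made with STAR 2.4.0 and CASAVA on sacCer3, as far as the submitters' processing notes list them. Which counter, annotation and strand setting served is not given in the sources used here. RPKM times gene length gave whole reads, within 0.1 read, for 99.8 to 100% of low values in each library, which yields the implied library totals. Of 18 gene pairs that overlap on opposite strands, 17 had values within 2-fold of each other, so strands were not separated. Not used were 3 entries that lack a distinct name (0.02 to 0.129% of each summed RPKM) and 1 column without a matching sample. Of the 6659 entries kept, 5986 matched the R64 annotation.

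Values were tested as log2(RPKM + 1) with R 4.3.3 and limma 3.58.1, using a trended empirical Bayes prior. The scale understates the change of low genes. The fit used the 6 libraries with the DAmP allele and the htz1 deletion as terms (3 residual degrees of freedom) and the 6404 genes that averaged 1 RPKM or more. The interaction came from a model with a mean per genotype over all 15 libraries (4 residual degrees of freedom). Genes are called at a p under 0.05 after Benjamini-Hochberg adjustment. A gene shifted in both had the same sign and at least 2-fold in prp43 DAmP minus the wild-type mean and in prp43 DAmP htz1 minus the htz1 mean, with both DAmP libraries beyond all 4 controls. A gene shifted in prp43 DAmP alone had at least 2-fold in the first of these, with prp43 DAmP beyond the other 5. In the second it had under 1.5-fold in the same direction, or a shift of any size the other way. With 5 simulated sets of 200 changed genes, 31 unchanged genes were called in all. The 45 gene lists are described by counts and medians, without a test.

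Named by rule were up to 12 genes each way shifted in both, up to 6 called genes each way, up to 4 such members of each list, 3 each way in prp43 DAmP alone, the 3 smallest interaction p-values, and PRP43 with its cofactors, other splicing helicases and neighbours. The members and lists were chosen with earlier results of these data known. Alternatives were other pseudocounts, filters, scalings, models, thresholds and each library left out in turn. Promoter windows of 300 bases and gene sequences were read from RefSeq R64.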

Additional observations from a re-analysis of the deposited data

Results flagged for a closer look

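The prp43 DAmP shift differed with and without HTZ1 for 10 genes by the test of the difference itself (limma, 1 library of each DAmP genotype). Of these, 4 are given here. As said above, the strain markers cannot be told apart from this difference. The interaction was log2 -6.26 for PBI1 (adjusted p = 0.00368), -7.25 for DAN1, -5.03 for TIR1 and -5.41 for YPR145C-A (adjusted p = 0.0406 for these 3). Under 4 alternatives a single call was left: PBI1 with a pseudocount of 0.1, without a filter on low values or at a mean of at least 10 RPKM, and TIR1 in the 6 libraries alone. TIR1 was also lost with each library scaled to the same median log ratio and, with a control left out, without wild type 1. All 4 were high in prp43 DAmP and near the controls in prp43 DAmP htz1. YPR145C-A stood at 205 and 4.06 RPKM in prp43 DAmP and prp43 DAmP htz1, against 5.07 and 2.61 RPKM in the wild type and 4.53 and 3.33 RPKM in htz1 1 and 2.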

How the results depend on the processing

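The count of genes that passed the test, 0, was 0 under the other pseudocounts, filters, scaling, no trend, the additive model, the ribosomal DNA share as a term and voom. It was 1 (PBI1) with a mean per genotype over 15 libraries, 0 to 103 when a library was left out (103 without htz1 2, 20 without prp43 DAmP htz1, 1 without htz1 1), and 4, all ribosomal DNA frames, without wild type 1 and htz1 1. The 7 genes shifted in both became 12 with a pseudocount of 0.1, 4 with 5, 5 after scaling (without COS8 and snR69), 35 at 1.5-fold, 3 at 4-fold, 2 (without htz1 1) to 58 (without htz1 2) with a control left out, and 16 without wild type 1 and htz1 1. Leaving out a DAmP library gives no such count. The 10 interaction calls became 1 (PBI1) with a pseudocount of 0.1, without a filter or at 10 RPKM, 16 with a pseudocount of 5, 1 (TIR1) in the 6 libraries alone, and 5 to 29 with a control left out (5 without wild type 1 or htz1 1, 29 without wild type 3). The PRP43 log2 difference stayed between -1.66 and -1.04 with a library left out, and passed the test at -1.585 without htz1 2. The heat shock median was 0.186 with a pseudocount of 5, 0.278 after scaling, 0.18 without wild type 1 and htz1 1, and 0.177 to 0.268 with a library left out. No called value changed sign. Where a value moved, the cause was not tested. No paired analysis was possible because the DAmP libraries carry no replicate number and wild type and htz1 share only the number 1. With 1 library per DAmP genotype, no spread of a DAmP genotype can be given.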
